A study of Mus musculus with 6 samples.

Results

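The enzymes that store glycogen in muscle and release it again were compared between a jaw muscle and a limb muscle of the mouse. The set comprised 9 genes, Pygm, Phka1, Phkg1, Phkb, Gys1, Gbe1, Ugp2, Ppp1r3a and Ppp1r3c. They were chosen by name, with earlier results of these data known, and every probe set carrying only the symbol of such a gene was taken. This gave 18 probe sets of the 22626 on the array other than controls, which name 12393 genes in all. Superficial masseter, which closes the jaw, and tibialis anterior, which lifts the foot, came from normal female C57Bl/6 mice aged 6 months, with no treatment or genetic change named for either group. Each muscle was represented by 3 samples on 1 short-oligonucleotide array each, and the study set the muscles against each other as pairs to find genes that differ between chewing and limb muscle. Neither separate mice nor pooling of animals is stated for the 3 samples, so the spread between them may be technical in part.

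Glycogen is a branched polymer of glucose that muscle fibres lay down at rest and burn in contraction. Glucose 1-phosphate is activated to UDP-glucose by Ugp2, added to growing chains by glycogen synthase (Gys1) and arranged into branches by Gbe1. Glycogen phosphorylase (Pygm) releases glucose 1-phosphate again and is switched on by phosphorylase kinase, an assembly in which Phkg1 is the catalytic subunit of muscle and Phka1 and Phkb are regulatory subunits that pass on calcium and hormone signals. Ppp1r3a and Ppp1r3c bring protein phosphatase 1 to the glycogen particle, where it activates the synthase and shuts off the phosphorylase. Fast-twitch fibres rely on this store more than slow-twitch fibres do.

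Of these 9 genes, Phka1 and Gbe1 passed the test at an adjusted p under 0.05 and were lower in the masseter. They did so with 3 of 18 probe sets, while the other 15 did not pass, where 1.18% of the 13576 probe sets tested passed in either direction, 0.619% lower and 0.56% higher. That split, 84 lower and 76 higher, became 44 lower and 101 higher when each array was centred on its muscle fibre markers, and 0 of the 18 then passed. Those markers include Myh4, itself lower in the masseter, so the centring takes in the difference of that gene. Phka1 passed with 2 of its 3 probe sets, at 2.01-fold and 2.24-fold higher in the tibialis anterior, and Gbe1 with its single probe set, at 1.86-fold. Ugp2 and Pygm stood lower in every masseter array than in any tibialis array without passing after adjustment. Gys1, Phkg1 and Ppp1r3a had overlapping signals in the muscles. All 3 calls lay close to the threshold and ended under several other settings, eBayes without trend and paired SAM among them.

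The promoters of Phka1 and Gbe1, the genes that passed, and of Pygm, the phosphorylase itself, are shown so that the genes behind the values can be placed. Each stretch runs 5′ to 3′ on the gene's own strand from 250 bases before to 50 bases after the annotated start, in RefSeq's GRCm38.p6. Capitals mark CAGCTG, a form of E-box that myogenic factors can bind. CAGGTG, a further form, was neither searched for nor marked, and its letters occur in the Gbe1 stretch and in the promoter of Phkg1. Phka1 lies on the minus strand at chrX:102644197-102644496, Gbe1 on the plus strand at chr16:70313699-70313998 and Pygm on the plus strand at chr19:6384158-6384457.
Phka1: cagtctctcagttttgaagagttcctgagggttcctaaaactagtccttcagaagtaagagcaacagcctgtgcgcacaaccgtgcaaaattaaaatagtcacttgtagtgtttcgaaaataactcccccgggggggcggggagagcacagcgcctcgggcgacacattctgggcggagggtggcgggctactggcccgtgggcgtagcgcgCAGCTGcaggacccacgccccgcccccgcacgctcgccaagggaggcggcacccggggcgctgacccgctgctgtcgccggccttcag
Gbe1: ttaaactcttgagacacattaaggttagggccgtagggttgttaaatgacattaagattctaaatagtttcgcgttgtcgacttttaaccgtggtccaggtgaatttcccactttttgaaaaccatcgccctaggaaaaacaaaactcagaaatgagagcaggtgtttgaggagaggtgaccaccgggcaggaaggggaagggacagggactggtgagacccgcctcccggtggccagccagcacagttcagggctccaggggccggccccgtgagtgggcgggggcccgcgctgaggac
Pygm: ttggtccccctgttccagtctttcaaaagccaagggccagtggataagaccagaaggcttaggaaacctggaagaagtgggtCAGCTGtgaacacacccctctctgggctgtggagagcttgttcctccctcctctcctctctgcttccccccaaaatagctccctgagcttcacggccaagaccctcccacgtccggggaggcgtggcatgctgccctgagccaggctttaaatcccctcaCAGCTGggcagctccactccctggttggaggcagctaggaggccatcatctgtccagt
CAGCTG, which reads the same on both strands, occurs at -38 of Phka1 and at -168 and -8 of Pygm, counted by its first base from the gene start, and was not found in the Gbe1 stretch. It was present in 7 of the 10 promoters listed for the 9 genes and in 16.3% of 32851 mouse promoters of this length, which include promoters of genes silent in muscle. Among the 9 genes it was not found for Gbe1 and Phkg1, and the MEF2 consensus, searched on both strands, was found for Ppp1r3a, against 3.19% of all promoters. Of the other motifs searched on both strands, CACGTG occurred in 1 of 10 against 7.15% of all, TATAAA in 1 of 10 against 13.6% and CCAAT in 5 of 10 against 37.4%. In Ppp1r3a the TATAAA match at -97 lies within the MEF2 match, which begins at -100, while the TATAAA match at -149 lies apart from it. All 5 motifs were chosen after the promoters of these genes had been read, and CAGCTG because it had been seen in them, so its share is no test, and a match describes letters, not a bound site.

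Several properties of the arrays bear on these genes. The 13 markers of the muscle fibre itself, which include Acta1, Ckm and Mb, were bright everywhere, and the summed signal was 163700 to 201900 in the masseter against 206600 to 207900 in the tibialis anterior, with 1 of 13 past the threshold and lower in the masseter (Myh4). Myh4, a myosin heavy chain, read 5649, 7072 and 8100 in masseter 1, 2 and 3. It read 20228, 17512.5 and 19398 in tibialis arrays 1, 2 and 3, so this gene makes up part of the gap in the sums. Of the 10 salivary gland markers, 9 were on the array and 3 were past the threshold and higher in the masseter. Smr2 went the other way without passing (-0.64, adjusted p = 0.327). The summed signal of the 9 was 44180 in masseter 1 against 4747 and 3103 in masseter 2 and 3, and 2355 to 4400 in the tibialis anterior. Smr2 was the brightest of them in each tibialis array, at 2548, 2063 and 1848.5 in arrays 1, 2 and 3, and read 2123 in masseter 3. Schwann cell and nerve markers summed to 937.3 to 1017 in the masseter against 549.4 to 647.2 in the tibialis anterior, and adipocyte markers to 4191 to 6036 against 3009 to 5018, with 1 of 4 kept past the threshold and higher in the masseter. No kept marker of endothelium, Schwann cells, red cells, macrophages or liver passed. For the Gapdh control, the signal of the 3' probe set over the 5' one, a sign of how far labelling reached along a transcript, was 2.66 ± 0.23 in masseter arrays against 1.94 ± 0.11 in tibialis arrays (SD, n = 3 each). The two-sided exact permutation test gave p = 0.1, which no comparison of 3 arrays with 3 can go below. For Actb the ratios were 2.96 ± 0.34 against 2.70 ± 0.11 (SD, n = 3 each; exact permutation p = 0.3). The part of these differences in the values below was not tested, apart from a fit centred on the fibre markers and fits without single arrays. The centred fit shifts with Myh4 as well, and so does not adjust for the amount of fibre alone. The log2 difference, masseter minus tibialis anterior, averaged -0.15 over the 13 fibre markers. Myh4 stood at -1.47 and the others between -0.26 and 0.36. In whole muscle, fewer fibres in a sample and less transcript per fibre cannot be told apart.

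**Figure D1:**
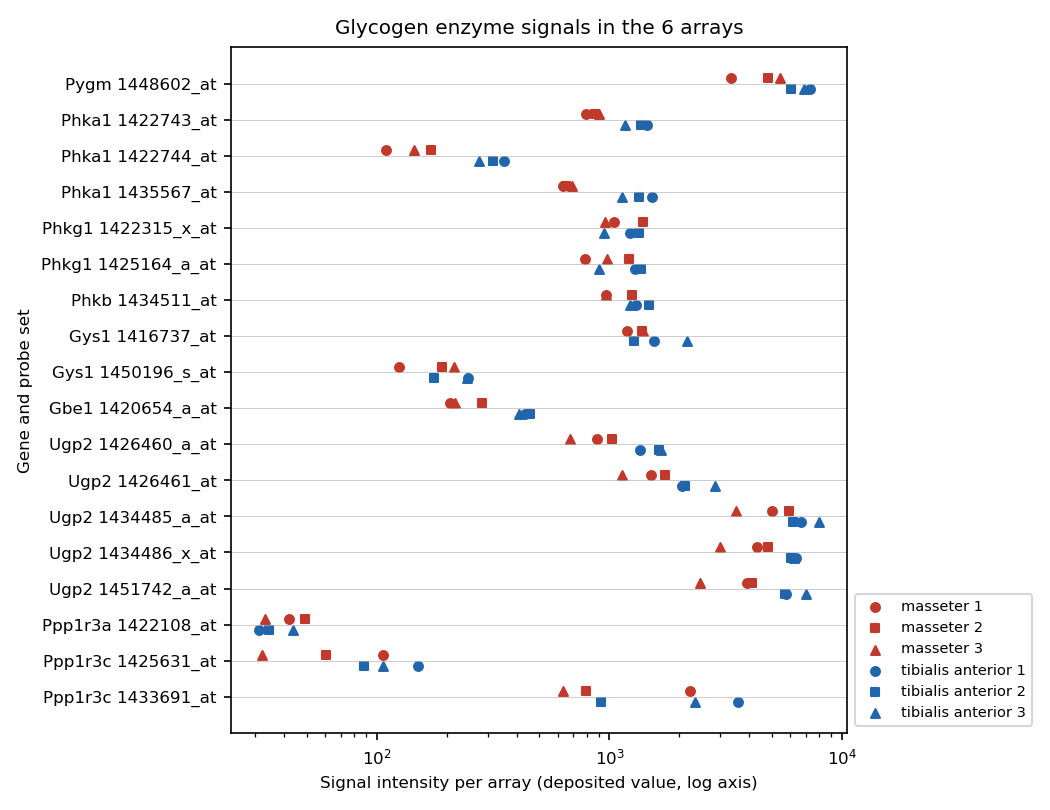
Deposited signal intensity (log axis) of the 18 probe sets in the 6 arrays, with masseter in red, tibialis anterior in blue and the replicate number as the marker shape. The red points of Phka1, Gbe1, Ugp2 and Pygm lie to the left of all blue points, while those of Phkg1, Gys1, Phkb, Ppp1r3a and Ppp1r3c mix with them.

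On the breakdown side, Pygm was read by 1 probe set, 1448602_at, at signals of 3338, 4806 and 5424 in masseter 1, 2 and 3. The tibialis arrays 1, 2 and 3 stood at 7315, 6019 and 6840. Every masseter array was below every tibialis array, with masseter 1 the lowest of all. The log2 difference, masseter minus tibialis anterior, was -0.60 ± 0.17 (limma estimate ± SE, n = 3 per muscle), with a 95% interval of -0.99 to -0.20, and it did not pass after adjustment (adjusted p = 0.18). Within the numbered pairs the difference was -1.13, -0.32 and -0.33, and without replicate 1, the pair that holds the array rich in salivary transcripts, it was -0.33 (adjusted p = 0.288). Pygm loss in people causes McArdle disease, in which muscle cannot draw on its glycogen.

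Phka1, the muscle form of the alpha subunit of phosphorylase kinase, gave the lowest adjusted p of the set. Its probe set 1435567_at read 630.4, 650.0 and 691.3 in masseter 1, 2 and 3, against 1530, 1335 and 1131 in tibialis arrays 1, 2 and 3. The masseter arrays lay close together at less signal than any tibialis array. The difference was -1.01 ± 0.16 with an interval of -1.37 to -0.65 (adjusted p = 0.0256), which ranks 90 by p among 13576 probe sets tested. The dimmer probe set 1422744_at read 109.1, 170.2 and 144.8 in the masseter arrays and 350.3, 315.5 and 273.6 in the tibialis arrays. Its groups also stood apart, by -1.16 ± 0.21 (adjusted p = 0.0458).

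The remaining Phka1 probe set, 1422743_at, read 796.6, 864.6 and 904.1 in the masseter against 1453, 1364 and 1167 in the tibialis anterior. It did not overlap between the muscles but did not pass, with a difference of -0.63 ± 0.15 (adjusted p = 0.106). All 3 probe sets were lower in the masseter in each numbered pair, and pair 1 had the greatest gap for each. Their mean log2 signal, tested over 8316 genes, differed by -0.93 ± 0.15 (adjusted p = 0.0234), an approach chosen after the probe sets had been seen for these genes. Of 18 other settings, 10 kept the call for 1435567_at and 4 that for 1422744_at. With each array centred on the fibre markers the 2 differences were -0.86 and -1.01 (adjusted p = 0.0501 and 0.0628). Without replicate 1 they were -0.87 (adjusted p = 0.0474) and -0.90 (adjusted p = 0.0763), and without replicate 2 -0.99 (adjusted p = 0.0725) and -1.30 (adjusted p = 0.056). Leaving out replicate 3 kept the call of the first (adjusted p = 0.0177) and ended that of the second (adjusted p = 0.0514). Leaving out masseter 1, masseter 2, tibialis anterior 1 or tibialis anterior 2 alone also ended the first call (adjusted p = 0.0511, 0.0795, 0.0581 and 0.0628).

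The other subunits of the kinase had smaller estimates. Phkb, the beta subunit, read 965.8, 1250 and 968.8 in the masseter against 1295, 1482 and 1221 in the tibialis anterior. Masseter 2 reached above tibialis anterior 3, so the groups overlapped, although each pair was lower in the masseter. The difference of -0.33 ± 0.13 did not pass (adjusted p = 0.327). Phkg1, the catalytic gamma subunit of muscle, had a masseter mean of 974.9 and a tibialis mean of 1165 with 1425164_a_at (-0.26 ± 0.18, adjusted p = 0.612). With 1422315_x_at the means were 1119 and 1161 (-0.05 ± 0.14, adjusted p = 0.918), and the interval of -0.37 to 0.26 leaves room for a small difference either way. The sign of that probe set turned to 0.01 with quantile normalization and to 0.10 with centring on the fibre markers. The suffix of this probe set marks probes that may also bind other transcripts. Ugp2 1434486_x_at carries it too, as do probe sets used below for Gaa, Ppp1cb, Tpi1 and Gpatch4. Whether Phka1 differed more between the muscles than Phkb or Phkg1 was not tested.

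On the synthesis side, Ugp2, which makes UDP-glucose, was read by 5 probe sets, all lower in the masseter and none overlapping between the muscles. The brightest, 1434485_a_at, read 4987, 5894 and 3486 in the masseter against 6654, 6154 and 7996 in the tibialis anterior. Masseter 3 was the lowest and tibialis anterior 3 the highest, so that pair 3 differed by -1.20 and pair 2 by -0.06, and the difference of -0.56 became -0.24 without replicate 3. The probe set nearest to passing, 1426460_a_at, read 881.8, 1025 and 676.3 in the masseter against 1348, 1631 and 1671 in the tibialis anterior. Its difference was -0.86 ± 0.17 (adjusted p = 0.0601), and it passed without replicate 1 (adjusted p = 0.0429). The probe set 1451742_a_at passed without replicate 2 (adjusted p = 0.049). Over the 5 probe sets the differences ran from -0.86 to -0.56, with adjusted p from 0.0601 to 0.274. These probe sets share a gene and do not count as separate evidence.

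Gys1, the muscle glycogen synthase that lengthens the chains, overlapped between the muscles. Its brighter probe set, 1416737_at, read 1184, 1381 and 1396 in the masseter against 1556, 1282 and 2165 in the tibialis anterior. Tibialis anterior 2 fell among the masseter arrays and tibialis anterior 3 stood highest. The difference was -0.31 ± 0.17 (adjusted p = 0.494), with an interval of -0.69 to 0.07. The other probe set, 1450196_s_at, differed by -0.35 ± 0.23 (adjusted p = 0.587), and the sign was positive in pair 2 for both.

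Gbe1, the branching enzyme, read 205.4, 282.6 and 216.6 in masseter 1, 2 and 3, against 434.8, 453.1 and 408.3 in tibialis arrays 1, 2 and 3. The tibialis arrays were tightly grouped, with an SD of 0.08 on the log2 scale against 0.25 in the masseter, and every one lay above all masseter arrays. The difference was -0.89 ± 0.16, with an interval of -1.27 to -0.51 (adjusted p = 0.0491). The pairs gave -1.08, -0.68 and -0.91. The call held in 4 of 18 other settings, with the difference between -1.03 and -0.74 in all of them, and it ended with centring on the fibre markers (-0.74, adjusted p = 0.0943) and with any pair or any array left out. Without replicate 1, 2 or 3 the adjusted p was 0.0945, 0.115 and 0.112, and without a single array it lay between 0.0683 and 0.143. Inherited loss of GBE1 in people leads to storage of poorly branched glycogen.

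Of the subunits that bring phosphatase to glycogen, Ppp1r3c varied more between samples of 1 muscle than any other gene of the set. Its bright probe set, 1433691_at, read 2217, 790.8 and 631.7 in masseter 1, 2 and 3, against 3576, 920.4 and 2342 in tibialis arrays 1, 2 and 3. Replicate 1 was the highest of both muscles, and tibialis anterior 2 lay between masseter 1 and masseter 2, so the groups overlapped. The SD was 0.97 in the masseter against 1.00 in the tibialis anterior on the log2 scale, while each pair was lower in the masseter, by -0.69, -0.22 and -1.89. The difference of -0.93 ± 0.28 did not pass (adjusted p = 0.191), and it rose to an adjusted p of 0.541 without the replicate block. It passed without replicate 2, at -1.29 (adjusted p = 0.0259), and was -0.45 without replicate 3 (adjusted p = 0.343). The dim probe set 1425631_at differed by -0.92 ± 0.29 (adjusted p = 0.218), again with each pair lower in the masseter.

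Ppp1r3a, the glycogen-targeting subunit typical of skeletal muscle, was the dimmest gene of the set on this array and the one with a positive estimate. It read 42.0, 49.1 and 33.1 in the masseter against 31.1, 34.2 and 43.7 in the tibialis anterior. The groups overlapped, and the signals lay just above the filter level of 28.6. The difference was 0.18 ± 0.38 (adjusted p = 0.892), with an interval of -0.68 to 1.05 that covers a change of either sign. Brightness on an array depends on the probes, so its low signal gives no rank of transcript abundance against the other genes.

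**Figure D2:**
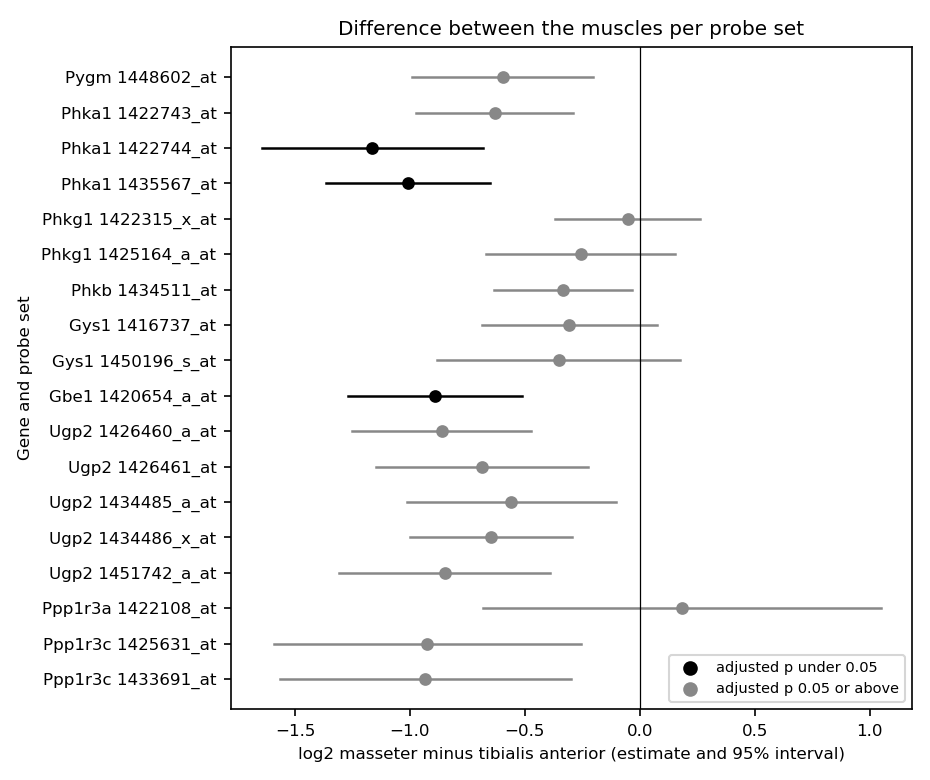
Log2 masseter minus tibialis anterior of each of the 18 probe sets, with limma's estimate as a point and its 95% interval as a line, black where the adjusted p is under 0.05. The 3 black points belong to Phka1 and Gbe1, and 17 of 18 estimates lie below 0.

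Read as a set, 3 of 18 probe sets passed the threshold and were lower in the masseter and 0 were higher, against the 0.619% and 0.56% of all probe sets given above. An estimate below 0 was found for 17 of 18, against 47.1% of all, and 13 of 18 had an unadjusted p under 0.05 with lower masseter signal, against 6.12%. For 10 of 18 every masseter array was below every tibialis array, against 8.63% of all, and for 13 of 18 all numbered pairs were lower in the masseter, against 16.3%. The median difference was -0.64, and that of all 13576 probe sets was 0.02. With a gene represented by its brightest probe set, 1 of 9 genes passed (Gbe1), 6 had an unadjusted p under 0.05, 4 did not overlap and 8 were lower in the masseter. Shares of all genes by their brightest probe set are not given, so these gene counts have no like background beside them. All 18 probe sets passed the filter on dim signals. The genes were chosen with earlier results of these data known, and probe sets that share a gene are not separate evidence. The counts therefore describe the set and are no test of it. The median was -0.67 over the 8 probe sets of synthesis genes and -0.60 over the 7 of breakdown genes, so that both branches stood on the same side. Whether the branches differ from each other was not tested.

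The arrays of a muscle did not rank alike for all genes. Masseter 2 was the highest masseter array for 11 of 18 probe sets and the lowest for 0. Masseter 1 was the lowest for 9, among them Pygm and the Phka1 probe sets, and masseter 3 for the other 9, among them all of Ugp2 and Ppp1r3c. The median deviation from the masseter mean over the 18 was -0.08, 0.27 and -0.17 in masseter 1, 2 and 3, and lay between -0.06 and 0.05 in the tibialis arrays. Pygm and Phka1 had their widest gap in pair 1, and Ugp2 and Ppp1r3c in pair 3. For Phka1 tibialis anterior 1 was also the highest tibialis array with each probe set, and with 1435567_at the SD was 0.07 in the masseter against 0.22 in the tibialis anterior on the log2 scale.

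**Figure D3:**
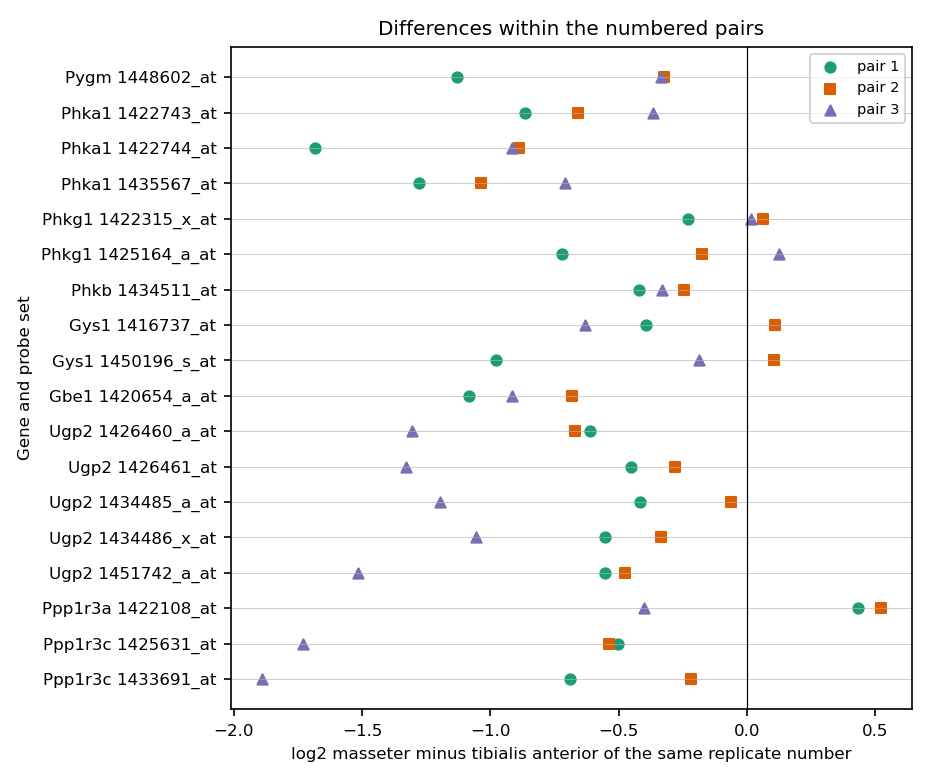
Log2 masseter minus tibialis anterior within each pair of arrays that share a replicate number, for the 18 probe sets. Pair 1 lies furthest left for Pygm and Phka1, and pair 3 for Ugp2 and Ppp1r3c, where it reaches -1.89.

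Of 21 other genes of glycogen metabolism listed beside the set, 13 were on the array under a single symbol and 12 passed the filter. Of these 12, 1 passed the threshold with lower masseter signal, 0 passed with higher signal and 11 did not pass, and the median difference was -0.06. The gene that passed was Stbd1, a glycogen-binding protein that tethers glycogen to membranes and has been tied to its delivery to the lysosome. Stbd1 read 54.4, 64.7 and 85.8 in masseter 1, 2 and 3, against 210.9, 325.5 and 258.8 in tibialis arrays 1, 2 and 3. Every tibialis array stood far above every masseter array. The difference of -1.96 ± 0.21 (adjusted p = 0.00498) was a 3.89-fold higher signal in the tibialis anterior. It was greater than that of any of the 18 probe sets above, a difference that was not itself tested. The Stbd1 call held in 17 of 18 other settings, with centring on the fibre markers (-1.81, adjusted p = 0.00889) and without replicate 1 (-1.96, adjusted p = 0.00611) among them, and ended with eBayes without trend (adjusted p = 0.135).

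Pgm1, which interconverts glucose 1-phosphate and glucose 6-phosphate between glycogen and glycolysis, had means of 1535 and 2511 without overlap (-0.71 ± 0.19, adjusted p = 0.144). It passed in the fits without replicate 3 (adjusted p = 0.0472) and without masseter 3. Gyg, the glycogenin that primes new particles, had means of 989.1 and 914.3 (0.11 ± 0.20, adjusted p = 0.872). The forms typical of other tissues were dim. Pygl, the liver phosphorylase, had means of 59.0 and 31.7 without overlap, with all numbered pairs higher in the masseter (0.90 ± 0.35, adjusted p = 0.313), and Pygb, the brain phosphorylase, 67.0 and 83.1 (-0.31 ± 0.25, adjusted p = 0.678). Gys2, the liver synthase, lay below the filter level in all arrays, at 4.5 to 15.0.

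Phka2 and Phkg2, the kinase subunits typical of liver, differed by -0.14 ± 0.21 and 0.17 ± 0.24 (adjusted p = 0.837 and 0.831). The lysosomal glucosidase Gaa differed by -0.12 ± 0.14 with its brighter probe set and 0.17 ± 0.23 with the other (adjusted p = 0.777 and 0.82). Laforin (Epm2a), a phosphatase that acts on glycogen, differed by -0.04 ± 0.30, Ppp1r3f, a further targeting subunit, by -0.08 ± 0.28, Pgm2 by 0.25 ± 0.35 and the ubiquitin ligase Rbck1 by 0.42 ± 0.27, with adjusted p from 0.568 to 0.972. The estimates of Phka2, Gaa, Epm2a and Ppp1r3f turned positive with centring on the fibre markers.

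**Figure D4:**
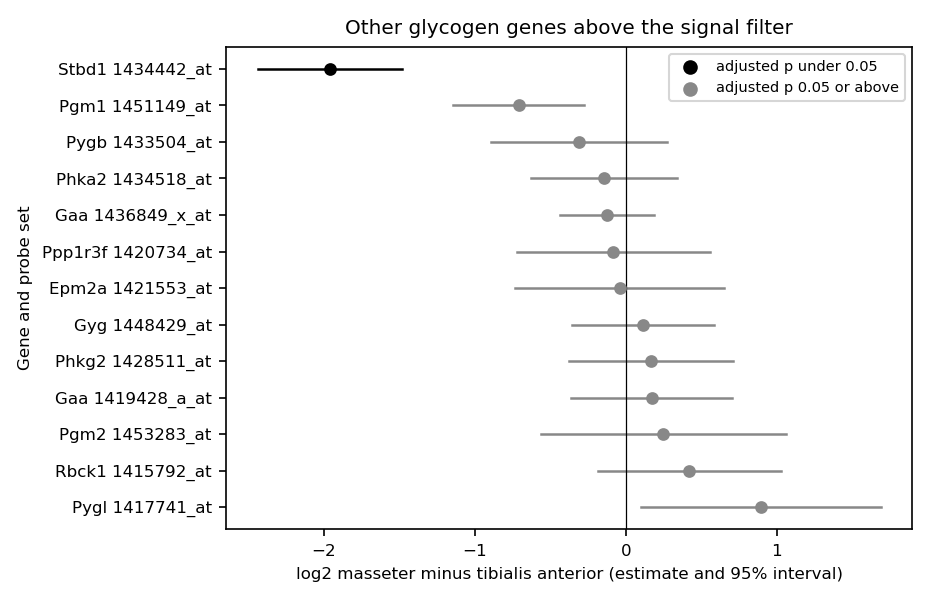
Log2 masseter minus tibialis anterior (limma's estimate and 95% interval) of the other glycogen genes whose probe sets passed the signal filter, black where the adjusted p is under 0.05. Stbd1 lies at -1.96, and the intervals of Pgm1 and Pygl also leave out 0.

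Among 31 genes of glucose supply and of the signals that act on glycogen enzymes, 22 were on the array and 20 passed the filter. Of these 0 passed in either direction by limma, and the median difference was -0.14. At an unadjusted p under 0.05, 3 of the 20 genes by their brightest probe sets were lower in the masseter and 2 higher. Of all 33 kept probe sets of these genes, 5 were lower, against 6.12% of all probe sets, and 4 higher, against 6.93%. Glycogen synthase kinase 3, which inhibits the synthase, gave 0.04 ± 0.17 for Gsk3a and -0.39 ± 0.29 for Gsk3b (adjusted p = 0.948 and 0.64). The glucose transporter Slc2a4 had means of 2021 and 1930 (0.07 ± 0.20, adjusted p = 0.926), and the hexokinase Hk2 means of 3218 and 3646 (-0.18 ± 0.15, adjusted p = 0.689). Akt2, the kinase through which insulin promotes glucose uptake and storage, had for its brighter probe set means of 839.6 and 482.9 without overlap (0.80 ± 0.18, adjusted p = 0.0968). Irs1, an insulin receptor substrate named after its values were seen, had means of 445.6 and 854.0 (-0.94 ± 0.18, adjusted p = 0.0516) and also did not overlap. It was past the threshold in 3 of 18 other settings, with the filter at the 20th or 60th percentile and without replicate 3. Also named after their values were seen are the remaining genes whose brightest probe set had an unadjusted p under 0.05. Ppp1r1a, an inhibitor of protein phosphatase 1, had means of 249.9 and 127.1 without overlap, with all numbered pairs higher in the masseter (0.98 ± 0.22, adjusted p = 0.0982), the greatest estimate of the list in size. The phosphatase's catalytic subunits Ppp1cb and Ppp1cc, by their brightest probe sets, differed by -0.33 ± 0.12 and -0.49 ± 0.12 without overlap (adjusted p = 0.283 and 0.119). Dimmer probe sets of Prkar1a (0.63 ± 0.18, adjusted p = 0.165) and Slc2a1 (-0.83 ± 0.28, adjusted p = 0.242) also had an unadjusted p under 0.05. The brightest probe sets of these genes did not.

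The genes whose pattern over the 6 arrays was nearest to 3 of the enzymes were found by the root mean square distance of log2 signals, each centred on its own mean, among 8307 genes outside the set. For Pygm these were the glycolytic enzyme Tpi1 (distance 0.075), the endothelin-converting enzyme Ece1 (0.0808) and Lrrc61 (0.0863). For Gbe1 they were Mycbp2 (0.0978), Ccser2 (0.1) and Stab2 (0.106), and for Gys1 Polr3a (0.0447), Fdx1 (0.0708) and Gpatch4 (0.0719). Tpi1 stood at 4815, 6228 and 6768 in the masseter against 9537, 8283 and 8549 in the tibialis anterior, with masseter 1 the lowest as for Pygm. With 6 arrays in 2 groups such distances describe these samples and are given without a test.

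**Figure D5:**
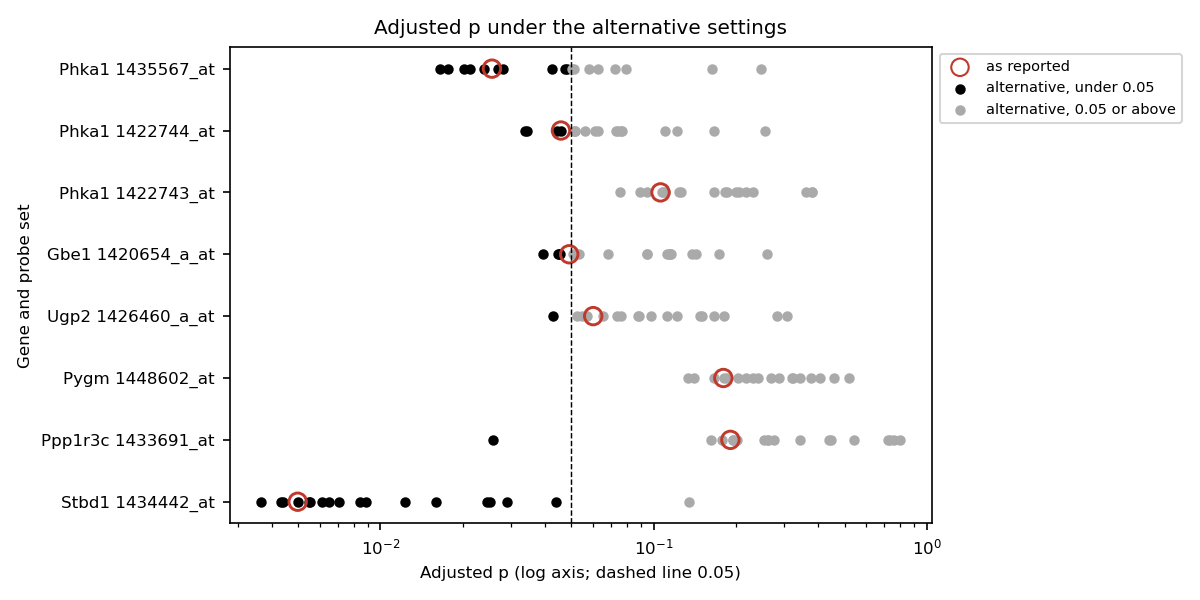
Adjusted p (log axis) of 7 probe sets of the set and of Stbd1, as reported (red ring) and under the other settings (black under 0.05, grey at 0.05 or above). The rings of Gbe1 and of the 2 Phka1 probe sets that passed lie at or left of the dashed line at 0.05 with points on both sides of it, and 17 of 18 points of Stbd1 lie below it.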

How the data were processed

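Per the submitters' processing notes, which name MAS5 and GCOS, the deposited values are linear signal intensities, 1 for each probe set on each array; further settings were not stated. The trimmed mean was 150.1 on all 6 arrays, so no scaling was added. The platform annotation gave 20380 probe sets a single symbol. A floor of 1 was applied before taking log2. Probe sets other than controls were kept from the 40th percentile of mean log2 signal (4.84, a signal of 28.6), which left 13576. Masseter and tibialis anterior were fitted in limma 3.58.1 (R 4.3.3; lmFit and trended eBayes), two-sided, with replicate number as a fixed block because the design text describes paired comparisons, and Benjamini-Hochberg adjustment ran over all probe sets kept. Group means are geometric. The number of arrays limits precision. The fit was tested on simulated data whose spreads were drawn from limma's own fitted trend; in a version that used each probe set's own residual spread it recovered none of the planted changes. SAM, which the design text names, was written anew here and served as an alternative, beside other scalings, filters and fits without single arrays. The genes, lists and alternatives were chosen with earlier results of these data known. Named were all 9 genes, all measured other glycogen genes, signalling genes past the threshold plus Gsk3a, Gsk3b, Slc2a4, Hk2 and Akt2, and the 3 genes nearest in pattern to Pygm, Gbe1 and Gys1. No signalling gene passed. Irs1, Ppp1r1a, Ppp1cb, Ppp1cc, Prkar1a and Slc2a1 fall outside this rule and were named after their values were seen.

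Deviations of same-numbered arrays from their muscle's mean correlated at 0.0392, 0.152 and 0.101 over probe sets for numbers 1, 2 and 3, and the labels do not state that a number marks 1 mouse. Between arrays of unlike number the values ran from -0.157 to 0.0468, so number 1 did not exceed all of them.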

Additional observations from a re-analysis of the deposited data

How the results depend on the processing

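Without the replicate block 138 probe sets passed in all against 160 with it, and 3 of the 18 glycogen probe sets passed in both fits. Over these 18 and the 18 other settings, 318 of 323 differences kept their sign, 36 of the calls of Phka1 and Gbe1 under a setting were lost and 3 were gained. Counts moved as follows, and the cause was not tested. With eBayes without trend, 13 probe sets passed in all, 0 of the set and 0 other glycogen genes. With paired SAM, 34 passed in all and 0 of the set. Quantile normalization left 1 of the set, and centring on the fibre markers 0. That centring, whose 13 markers include Myh4 at -1.47, moved the median difference of all probe sets from 0.02 to 0.17. With single replicates or arrays left out, 45 to 173 passed in all, 0 to 2 of the set, 1 to 2 other glycogen genes and 0 to 1 signalling genes. The signalling count was 1 with the filter at the 20th or 60th percentile. It was also 1 when a gene's probe sets were averaged, and by such averages 2 genes of the set passed where the brightest probe sets gave 1, a comparison added after the data were seen. The share of all 8316 averaged genes that passed is not given, so these counts have no like background beside them. For Actb, the difference between the muscles (masseter minus tibialis anterior) in the signal ratio was positive for the 3' over the 5' probe set and -0.978 for the 3' over the middle one, from mean ratios of 6.85 and 7.83. For Gapdh the 3' over middle ratio was 1.27 ± 0.1 in the masseter against 1.1 ± 0.013 in the tibialis anterior (SD, n = 3 each). The exact permutation test gave p = 0.1 for it, the lowest possible. Small estimates changed sign. Those of Phkg1 1422315_x_at became 0.008179 with quantile normalization and 0.09887 with centring, and with centring Phka2 became 0.008547, Ppp1r3f 0.06776, Epm2a 0.111 and Gaa 0.02669. With single replicates or arrays left out, the range was -0.21 to 0.05806 for Phkg1 1422315_x_at, -0.10 to 0.38 for Phkg2, -0.17 to 0.37 for Gyg, -0.19 to 0.76 for Pgm2, -0.44 to 0.18 for Ppp1r3f, -0.33 to 0.14 for Epm2a, -0.06664 to 0.18 for Gsk3a and -0.24 to 0.28 for Slc2a4. Fits without a single array had no block. Ppp1r3a gave no value with the filter at the 60th percentile.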
